A study of Mus musculus with 144 samples.

Results

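The alcohol dehydrogenase (ADH), aldehyde dehydrogenase (ALDH) and aldo-keto reductase (AKR) genes were followed in mouse liver over the day. They were chosen by symbol alone, as every gene whose name begins with Adh, Aldh or Akr and a digit. This gave 45 of the 51912 genes in the count table, of which 7 are ADH, 21 ALDH and 17 AKR genes. Liver RNA had been read by 3′ mRNA sequencing, which counts each transcript at its poly(A) end, so that counts of different genes can be set side by side without dividing by length. The libraries fell into 4 series of 36. Wild-type mice gave total, nuclear and polysomal RNA, and Bmal1-/- mice gave total RNA only. Each series had 6 libraries at ZT2, 6, 10, 14, 18 and 22, where ZT is the zeitgeber time in h since the lights came on. All mice were labelled as male C57BL/6J, fed ad libitum in 12 h of light and 12 h of dark. The labels used here give no age and do not say which part of Bmal1 was altered. They also do not say that the 6 libraries of a group came from 6 mice, so that p-values measure the spread between libraries.

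ADH enzymes oxidise alcohols such as ethanol and retinol to aldehydes with NAD. ALDH enzymes oxidise aldehydes further to acids, which removes acetaldehyde, makes retinoic acid and completes the breakdown of several amino acids. AKR enzymes work mostly in the other direction, reducing aldehydes and the keto groups of steroids with NADPH. All 3 families are abundant in hepatocytes, the main cell of the liver.

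Libraries held between 1662449 and 14281894 gene counts, with a median of 6431391. Arntl, the symbol of Bmal1, was not lost in the libraries labelled Bmal1-/-, where it averaged 11.5 CPM (counts per 1e6 gene counts) ± 2.98 (SD, n = 36) against 6.73 CPM ± 5.40 in wild-type total RNA. Its daily swing in wild-type total RNA, with a peak-to-trough ratio of 14.1, differed from that in Bmal1-/- (edgeR interaction, adjusted p 1.84e-10). Hepatocyte markers made up 67749 CPM ± 11733 of wild-type total RNA and 56619 CPM ± 18245 of Bmal1-/- RNA. The 5 bile duct markers summed to between 16.2 and 66.6 CPM in wild-type and between 45.8 and 135.7 CPM in Bmal1-/- total RNA. The 5 airway markers summed to between 59.7 and 968 CPM in the 6 libraries of polysomal replicate 1, and to at most 1.91 CPM in the other polysomal libraries. In each series 1 library, always at ZT22, held over 100 CPM of Xist, a transcript of female cells, against the male label. The wild-type total RNA library of ZT2, replicate 4, also stood apart, with the lowest wild-type value of Akr1a1 (56.2 CPM), Akr7a5 (58.7 CPM), Aldh1l1 (60.8 CPM) and Aldh16a1 (8.65 CPM). The part of these libraries in the results was not tested beyond the values without them given below.

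The genes lie mostly in clusters of related copies. Per RefSeq (GRCm38.p6), all 7 ADH genes stand between positions 138198064 and 138455499 of chromosome 3. Of the Akr1c genes, 8 stand between positions 4048991 and 4586543 of chromosome 13. Reads of near-identical neighbours, such as Akr1c12 and Akr1c13 or Aldh1a1 and Aldh1a7, could have been split between them by the counting, so that values of single genes in these clusters are uncertain.

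The promoter stretches of 4 genes are shown because the results turn on them: Adh1 and Akr1c19, the members with a different rhythm in Bmal1-/-, Adh4, which peaked in the light, and Aldh3a2, which fell most in Bmal1-/-. Each stretch runs from 200 bases before to 10 bases after a start given by RefSeq (GRCm38.p6), in the direction of the gene. This start need not be the outer end of the gene. The stretches of Aldh3a2 and Akr1c19 lie wholly inside the RefSeq genes, whose outer 5′ ends are at 61267528 and 4233503. The start used for Adh4 also lies inside its gene. Capitals mark the E-box CACGTG, the sequence that BMAL1 and its partner CLOCK bind, and the ROR element TAGGTCA, bound by ROR and REV-ERB receptors.
Adh1 (chr3:138277385-138277594, plus strand): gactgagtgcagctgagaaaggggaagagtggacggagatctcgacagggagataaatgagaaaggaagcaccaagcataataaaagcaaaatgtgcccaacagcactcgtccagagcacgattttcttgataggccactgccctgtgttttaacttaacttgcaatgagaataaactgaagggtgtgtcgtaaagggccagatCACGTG
Aldh3a2 (chr11:61267177-61267386, minus strand): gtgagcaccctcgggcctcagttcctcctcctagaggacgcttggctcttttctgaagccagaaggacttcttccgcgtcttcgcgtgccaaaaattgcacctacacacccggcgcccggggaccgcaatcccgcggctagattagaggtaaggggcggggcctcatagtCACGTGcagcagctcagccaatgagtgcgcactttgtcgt
Adh4 (chr3:138415297-138415506, plus strand): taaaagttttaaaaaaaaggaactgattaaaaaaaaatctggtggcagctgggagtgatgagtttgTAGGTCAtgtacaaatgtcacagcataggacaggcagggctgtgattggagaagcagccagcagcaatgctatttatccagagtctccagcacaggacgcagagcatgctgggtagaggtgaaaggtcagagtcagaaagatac
Akr1c19 (chr13:4233540-4233749, plus strand): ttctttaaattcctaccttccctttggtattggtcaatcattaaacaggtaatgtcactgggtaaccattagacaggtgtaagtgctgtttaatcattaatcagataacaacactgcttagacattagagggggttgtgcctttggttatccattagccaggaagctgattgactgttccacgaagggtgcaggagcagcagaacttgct
The windows searched ran from 250 bases before to 50 bases after the start, on both strands, and were given for 35 of the 45 genes (38 windows). The E-box was in 4 of these windows, those of Adh1, Aldh3a2, Akr1c21 and Aldh18a1, against 7.15% of all 32851 promoter windows. Its first base is base 5 of the Adh1 transcript, counted from 1 at the start. In Aldh3a2 it stands 30 bases before the start used, which is inside the RefSeq gene. The ROR element was in 2 windows, those of Adh4 and Akr1c18, against 2.61% of all windows. Of the D-box forms bound by DBP and its relatives, TTATGTAA was in 1 window (Akr1c18, 0.938% of all windows) and TTACGTAA in 0 (0.119%). The antioxidant response element TGACNNNGC was in 5 windows, among them that of Akr1c19, against 12.4% of all. A match is a description of these letters and no measure of binding.

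In wild-type total RNA the 45 genes together took 8704 CPM ± 826 (SD, n = 36), and 3 of them held 57.2% of this. Adh1, the main ethanol and retinol dehydrogenase of liver, led with 2815 CPM ± 532. Aldh2, the mitochondrial enzyme that clears acetaldehyde, followed with 1345 CPM ± 271. Next came Akr1c6, a steroid reductase, with 817 CPM ± 222, and Aldh1a1, a cytosolic retinal dehydrogenase, with 762 CPM ± 193, which differed from each other by less than their spread.
Several members act in amino acid breakdown. Aldh7a1 of lysine breakdown averaged 229 CPM ± 20.05, Aldh8a1 of tryptophan breakdown 199 CPM ± 19.2 and Aldh4a1 of proline breakdown 192 CPM ± 31.5, while Aldh6a1 of valine breakdown averaged 116 CPM ± 28.7. Aldh5a1, succinic semialdehyde dehydrogenase, was lower at 45.7 CPM ± 4.92. Adh5, the glutathione-dependent formaldehyde dehydrogenase, averaged 214 CPM ± 24.9 and ranged from 178 to 302 CPM. Adh6-ps1, named as a pseudogene, was counted at 167 CPM ± 99.9 and spread widely, from 51.6 to 443 CPM.
A count of at least 10 per library on average was needed for a test, and 32 of the 45 genes reached it in at least 1 fit. The other 13 averaged at most 9.11 counts in each series. They include Aldh3a1, the corneal and stomach enzyme, which had counts in 2 of 36 wild-type total RNA libraries, Aldh1a2 and Aldh1a3, the retinal dehydrogenases of other tissues, and Akr1cl, which was at 0 in all 36.

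**Figure D1:**
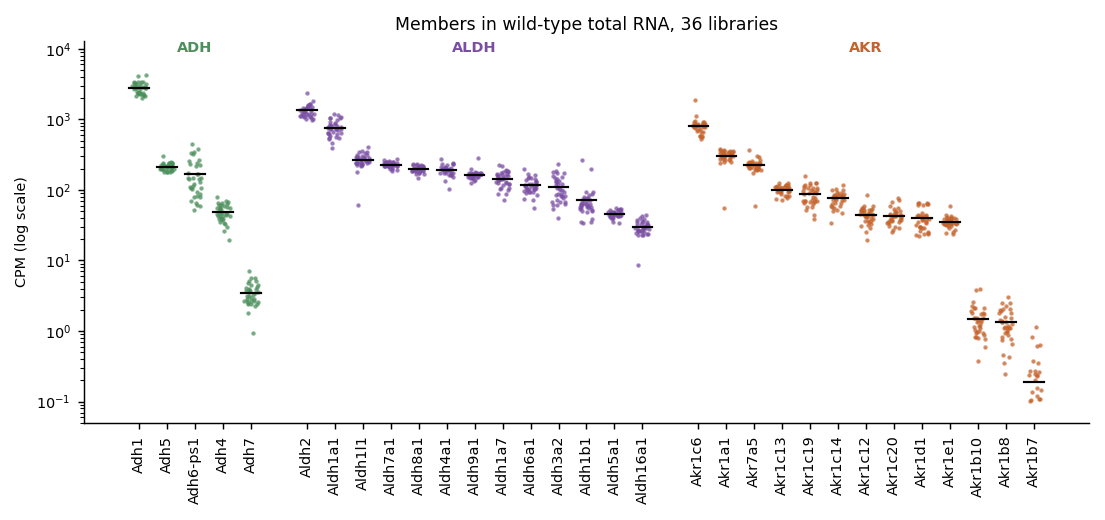
Level of the 31 genes tested in the Bmal1-/- comparison, in CPM on a log axis, in the 36 libraries of wild-type total RNA. Points are libraries (libraries at 0 cannot be drawn, which are 14 of 36 for Akr1b7 and none for the other genes), bars are means, and genes are ordered by mean within each family; Adh1 is highest at 2815 CPM.

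Total RNA of the 2 genotypes was compared to ask which of these transcripts depend on a core clock gene. Aldh3a2, the fatty aldehyde dehydrogenase of the endoplasmic reticulum, fell most, followed by Akr1c19 and Aldh1b1. Aldh9a1, which makes a precursor of carnitine, Aldh16a1, Akr1c20 and Akr1c6 rose. Changes are given as log2 ratios of normalised counts over the mean of the 6 time points with their standard error (SE), and p-values are from edgeR's quasi-likelihood test with Benjamini-Hochberg adjustment over all genes tested. Of 31 genes tested, 14 differed (6 higher and 8 lower in Bmal1-/-), beside 44.1% of all 12082 genes (22.4% higher and 21.7% lower), so that the share was near the background. The median log2 change was -0.02 for the 31 genes and 0.01 for all genes. In such bulk RNA, fewer cells of a type and less RNA per cell cannot be told apart.

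Aldh3a2 ranged from 39.5 through a median of 99.9 to 230 CPM in wild type. In Bmal1-/- its range was 5.25 to 51.5 CPM, with a median of 20.9 CPM. At each of the 6 time points all Bmal1-/- libraries lay below all wild-type libraries. Such a lack of overlap at all 6 times, in either direction, was seen in no other member and in 0.19% of all genes. The log2 change was -2.44 (SE 0.15, adjusted p 3.70e-21). The 2 sets of replicate numbers gave -2.74 (replicates 1 to 3) and -2.03 (replicates 4 to 6).
Akr1c19 averaged 87.6 CPM in wild type and fell to a mean of 40.3 CPM (log2 change -1.19, SE 0.10, adjusted p 4.35e-16), and was lower in Bmal1-/- at 6 of 6 time points.
Aldh1b1, a mitochondrial acetaldehyde and retinal dehydrogenase, averaged 71.97 and 42.9 CPM in the same order (-0.83, SE 0.13, adjusted p 4.21e-07). In replicates 1 to 3 alone its log2 change was -1.10, in replicates 4 to 6 alone -0.56.
The other falls were small. Aldh7a1 changed by -0.28 (SE 0.05, adjusted p 2.77e-07) and was lower at 6 of 6 time points. Aldh6a1 of valine breakdown, Akr1c12, Akr1c13 and Aldh5a1 changed by between -0.23 and -0.12. The call of Aldh6a1 was lost within replicates 1 to 3 (-0.14, adjusted p 0.413), and that of Akr1c12 within either set of replicates (adjusted p 0.207 and 0.0733). The calls of Akr1c12 and Akr1c13 were lost without wild-type ZT2 replicate 4 (adjusted p 0.058 and 0.0678), and that of Akr1c13 also without the Bmal1-/- library with Xist (0.0555). Within replicates 4 to 6 the call of Akr1c13 was lost too (log2 change -0.06, adjusted p 0.58 by edgeR). That of Aldh5a1 was lost within replicates 4 to 6 (log2 change 0.03, adjusted p 0.697).

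Among the genes that rose, Aldh9a1 went from 164 CPM ± 25.4 to a mean of 260.7 CPM (log2 change 0.57, SE 0.05, adjusted p 9.51e-17). Its Bmal1-/- libraries lay above all wild-type libraries of the same hour at 5 of 6 time points. Aldh16a1, an unusual member of its family, rose by 0.51 (SE 0.07, adjusted p 7.32e-09), and 19 of 36 Bmal1-/- libraries exceeded the highest wild-type library. Akr1c20 rose by 0.48 (SE 0.08, adjusted p 1.35e-06). For Akr1c6 the rise was 0.41 (SE 0.08, adjusted p 1.32e-05). Both had the higher mean in Bmal1-/- at all 6 hours sampled. The call of Akr1c6 was lost within replicates 4 to 6 (0.29, adjusted p 0.0673). Aldh8a1 rose by 0.12 (SE 0.03, adjusted p 0.00521), but by 0.03 within replicates 1 to 3 (adjusted p 0.693).
Akr1b7, an aldose reductase-like gene, also passed the test, on few counts. It averaged 1.5 counts in wild type and 18.7 in Bmal1-/-, so that it reached the count minimum only through the Bmal1-/- libraries. Its call, though counted above, is therefore not read as a rise. Akr1b7 had at most 1.14 CPM in wild type. In Bmal1-/- its median was 0.375 CPM and its highest library 32.3 CPM.
No ADH gene passed the threshold (0 of 5; 1 at an unadjusted p below 0.05). Adh1 averaged 3107 CPM in Bmal1-/- (log2 change 0.05, SE 0.08), Adh5 239 CPM (0.06, SE 0.05) and Adh4 52.4 CPM (0.01, SE 0.11). Adh6-ps1 had a log2 change of -0.63 (SE 0.28, adjusted p 0.0585), which DESeq2 called (-0.64, adjusted p 0.0418). In replicates 1 to 3 alone it was 0.48 (adjusted p 0.154), in replicates 4 to 6 alone -1.88 (adjusted p 0.00179). Aldh2, at 1345 and 1340 CPM, had a log2 change of -0.10 (SE 0.07, adjusted p 0.273). Aldh1a7 changed in opposite directions in the 2 sets of replicate numbers, by -0.70 (adjusted p 0.000619) and by 0.32 (adjusted p 0.0191). Over all replicates its log2 change was -0.17 (adjusted p 0.219). Akr1e1, not called over all libraries, passed without wild-type ZT2 replicate 4 (0.15, adjusted p 0.0108). Over all 36 libraries a genotype, 0 of 31 members were without overlap, beside 0.0579% of all genes.

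**Figure D2:**
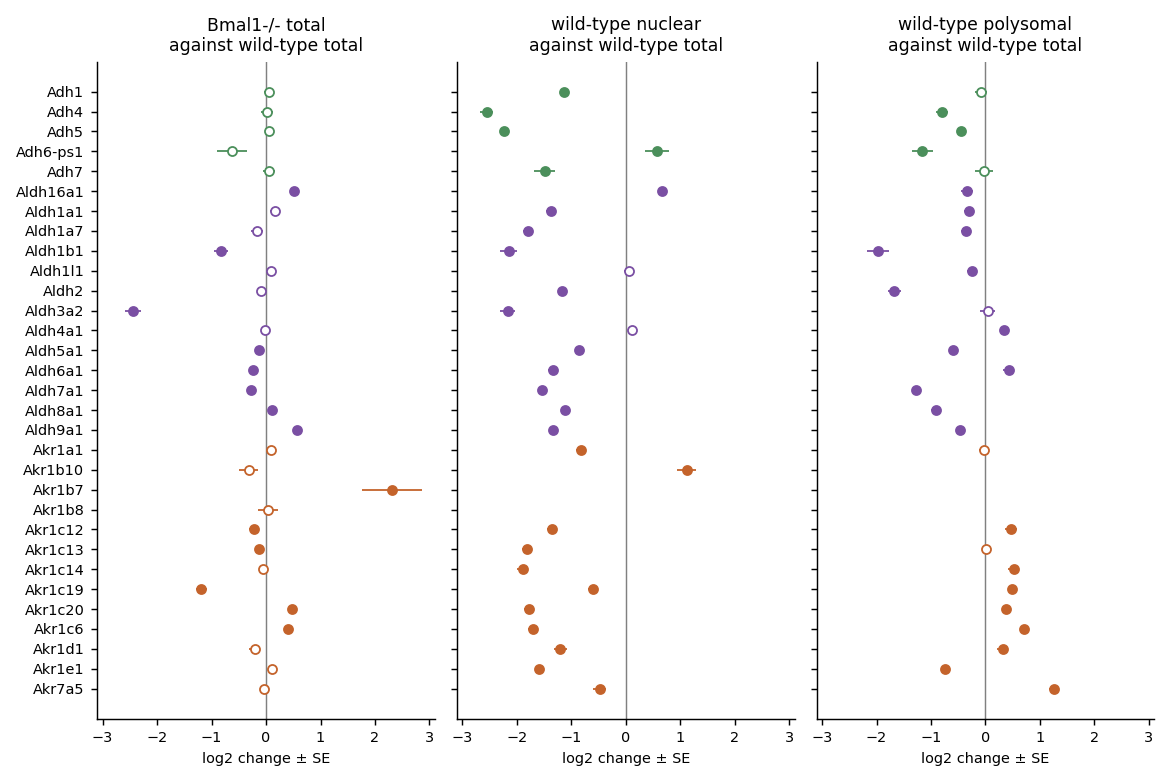
Log2 change against wild-type total RNA (x axis, with the SE as bars) of the genes tested in Bmal1-/- total RNA (left), nuclear RNA (middle) and polysomal RNA (right), ADH in green, ALDH in purple and AKR in orange. Filled points passed an adjusted p of 0.05; most genes lie left of 0 in nuclear RNA, while Bmal1-/- changes fall on both sides, led by Aldh3a2 at -2.44. All 3 panels share the wild-type total RNA libraries.

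Genes outside these 3 families, mostly of ethanol, retinoid and steroid metabolism, with Sord, Khk and Xdh, were listed as partners (30 genes, 29 tested). In Bmal1-/- total RNA 17 differed, 5 higher and 12 lower, beside 44.1% of all genes (22.4% higher and 21.7% lower), and the median log2 change of the 29 was 0.02. Aox1, an aldehyde oxidase, changed by -0.63 (SE 0.08, adjusted p 1.73e-10). Catalase (Cat), which can oxidise ethanol with hydrogen peroxide, changed by -0.52 (SE 0.06, adjusted p 1.44e-10). Genes of retinol and retinal conversion went both ways. Rdh9 (-0.98, adjusted p 1.17e-06), Rdh16 (-0.70, adjusted p 0.000164) and Dhrs4 (-0.39, adjusted p 9.19e-09) were lower by edgeR. Dhrs3 (0.28, adjusted p 0.000109) and Rdh7 (0.26, adjusted p 2.83e-05) were higher. Dhrs9 also passed (1.82, adjusted p 1.84e-10). It was under the count minimum in wild-type total RNA and reached it in this fit only through the Bmal1-/- libraries. Its call, though counted above, is therefore not read as a rise. Steroid genes went both ways as well. Hsd17b6, a hydroxysteroid dehydrogenase, rose by 1.21 (SE 0.14, adjusted p 4.57e-11). Hsd3b5 was higher (0.73, adjusted p 0.0246 by edgeR) and Srd5a1 lower (-0.76, adjusted p 6.32e-08).

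A cosine and sine of 24 h tested each series for daily rhythm. In wild-type total RNA 6 of 30 genes were rhythmic, beside 18.9% of all 11964 genes. They were 3 of 5 ADH genes (Adh1, Adh4 and Adh7) and 3 of 12 AKR genes (Akr1c19, Akr1d1 and Akr1c14). Among the 13 ALDH genes 0 passed, and 1 had an unadjusted p below 0.05 (Aldh8a1, adjusted p 0.0612). The median peak-to-trough ratio was 1.18 over the 30 genes and 1.25 over all genes.

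Akr1c19 at ZT6 held 43.5 CPM in the lowest library, 64.2 in the median and 77.6 in the highest. At ZT14 it held 69.0, 108 and 156 CPM in the same order. The fitted ratio of peak to trough was 1.84, with the peak at ZT14.8 (adjusted p 0.00025).
Adh1 was lowest at ZT6, with 1987, 2265 and 2857 CPM in the lowest, median and highest library, and highest at ZT22 by its mean, with 2354, 3094 and 4263 CPM. The 2 hours overlapped, and the fitted ratio was 1.41 with the peak at ZT18.95 (adjusted p 0.00397).
Adh4, a class of ADH largely restricted to liver, ran the other way. It held 42.4, 56.9 and 79.6 CPM at ZT2 and 26.4, 36.8 and 47.3 CPM at ZT18, so that the 2 hours overlapped. Its fitted peak was at ZT4.68, with a ratio of 1.52 (adjusted p 0.0186), and it was the only one of the 6 genes with a peak in the light phase.
Adh7, best known as the stomach retinol dehydrogenase, was rhythmic on few counts, from 0.940, 2.55 and 3.16 CPM at ZT2 to 1.82, 5.35 and 7.02 CPM at ZT14 (ratio 1.79, adjusted p 0.00717).
Akr1d1, the reductase that shapes the ring system of bile acids, held 23.4, 27.4 and 37.7 CPM at ZT6 and 25.2, 45.6 and 64.6 CPM at ZT18 (ratio 1.67, adjusted p 0.0212).
Akr1c14, which reduces androgen metabolites, held 77.03, 83.4 and 102 CPM at ZT10 and 33.6, 57.1 and 80.6 CPM at ZT22 (ratio 1.40, adjusted p 0.0494). Without the libraries with Xist its adjusted p was 0.055.
With time point as a free factor Adh1, Adh7 and Akr1c19 passed, and the other 3 did not. Replicates 1 to 3 alone gave 3 calls and replicates 4 to 6 alone gave 0 (edgeR), each set having 3 libraries per time point.

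**Figure D3:**
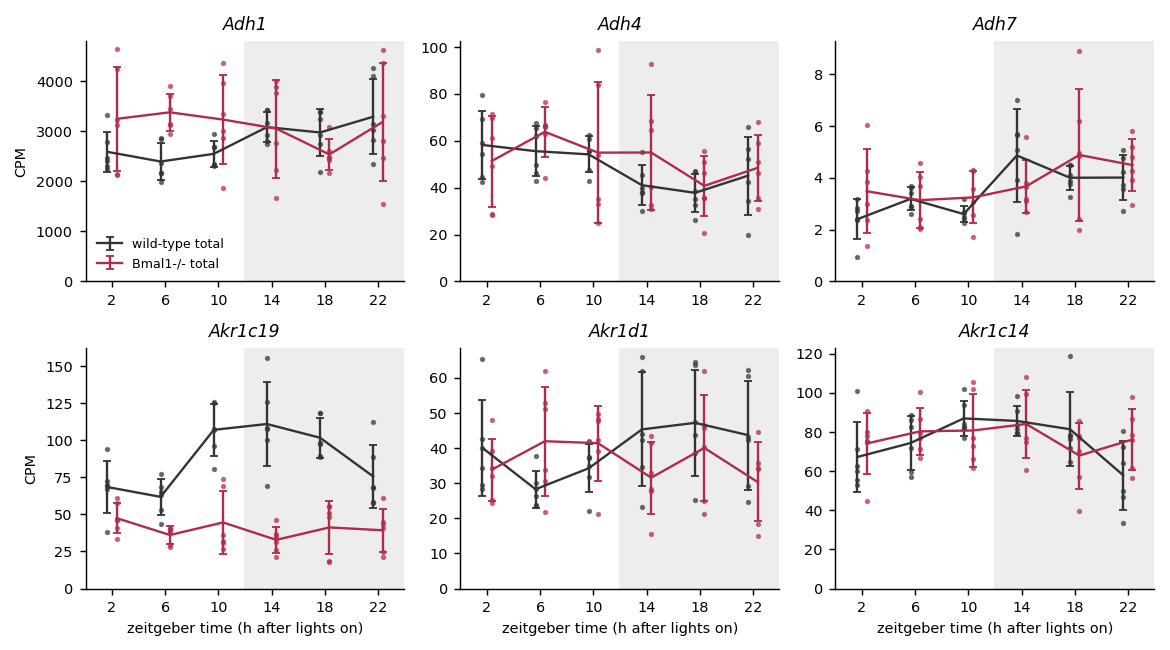
CPM of the 6 genes rhythmic in wild-type total RNA by zeitgeber time, in wild-type (black) and Bmal1-/- (red) total RNA. Points are libraries (6 per time and genotype), lines join the means with the SD as bars, and shading marks the dark phase. Akr1c19 in Bmal1-/- stays below its wild-type level at all 6 times.

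In Bmal1-/- total RNA 0 of 31 genes were rhythmic by edgeR, with 0 at an unadjusted p below 0.05, beside 0.00825% of all 12126 genes. The difference in rhythm itself, tested as an interaction, passed for 2 of 31 genes, beside 5.18% of all 12082. These were Akr1c19 (adjusted p 0.0187) and Adh1 (adjusted p 0.0298). In Bmal1-/- Akr1c19 held 27.9, 39.0 and 40.9 CPM (lowest, median and highest library) at ZT6 and 21.5, 33.5 and 45.95 CPM at ZT14. At ZT14 its 2 genotypes did not overlap, which held, in either direction, for 2 of the 31 members and 3.15% of all genes.
For Adh1 the 2 genotypes lay apart at ZT6 and overlapped at the other 5 times. At ZT6 Bmal1-/- libraries held 2937, 3298 and 3912 CPM, all above the wild-type libraries. At that hour 5 of the 31 members, in either direction, were without overlap, beside 5.64% of all genes. At ZT18 they held 2158, 2473 and 3086 CPM beside 2193, 3077 and 3388 CPM in wild type. The members without overlap at the remaining hours were 2 at ZT2 (3.26% of all genes), 5 at ZT10 (9.35%), 3 at ZT18 (7.26%) and 4 at ZT22 (4.13%).
Both interactions lost their call within replicates 1 to 3 (adjusted p 0.0694 for Akr1c19 and 0.449 for Adh1) and within replicates 4 to 6 (0.335 and 0.126). For the other 4 rhythmic genes no difference was called, with an adjusted p of 0.087 for Akr1d1.

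The fractions ask where in the cell these transcripts are found. Nuclear and polysomal RNA were each set against the same wild-type total RNA libraries, so that the 2 comparisons are not independent of each other or of the Bmal1-/- comparison. In nuclear RNA most members were low: 27 of 29 genes differed, 24 lower and 3 higher, beside 83.8% of all 11864 genes, which split evenly (42.1% lower and 41.6% higher). The median log2 change was -1.33 for the 29 genes and -0.01 for all genes. For 8 of the 29 genes the nuclear libraries did not overlap the total RNA libraries, beside 7.49% of all genes.
Adh4 was lowest in the nucleus relative to total RNA, at 8.67 against 48.7 CPM (log2 change -2.55, SE 0.12, adjusted p 9.94e-31). Adh5 followed, at 47.9 against 214 CPM (-2.23, SE 0.07, adjusted p 1.55e-39), and each of its nuclear libraries lay below each total RNA library. Aldh3a2 (-2.16, SE 0.14) and Aldh1b1 (-2.15, SE 0.16) came next. The abundant Adh1 had 1334 CPM in nuclear RNA (-1.13, SE 0.07, adjusted p 2.35e-23) and Aldh2 617 CPM (-1.18, SE 0.07, adjusted p 5.98e-26).
Aldh16a1 stood against this trend, at 48.9 against 29.8 CPM (0.67, SE 0.08, adjusted p 1.95e-11). Adh6-ps1 was higher in nuclear RNA too, by 0.57 (SE 0.22, adjusted p 0.015), with nuclear libraries from 47.8 to 903 CPM. That call was lost within replicates 4 to 6 (0.56, adjusted p 0.0989). Akr1b10, an aldose reductase-like gene, was higher on few counts, at 3.53 against 1.503 CPM. Aldh1l1, the folate enzyme, and Aldh4a1 did not pass (0.06 and 0.11, SE 0.09 and 0.07). Aldh4a1 passed without wild-type ZT2 replicate 4 (0.13, adjusted p 0.0449). Akr1b3, an aldose reductase, was under the count minimum for this test; it averaged 2.68 CPM ± 1.27 (SD, n = 36) in nuclear and 0.292 CPM ± 0.246 in total RNA. Of the 28 partner genes tested, 7 were higher and 14 lower in nuclear RNA, with a median log2 change of -0.37.

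In polysomal RNA, which is bound to ribosomes, most AKR genes were higher and most ALDH and ADH genes lower than in total RNA; a difference between the families was not tested. Of 28 genes tested 23 differed (9 higher and 14 lower), beside 76% of all 11556 genes (38.8% higher and 37.2% lower). Of the 10 AKR genes tested 7 were higher and 1 lower, of the 13 ALDH genes 2 were higher and 10 lower, and of the 5 ADH genes 0 were higher and 3 lower. Median log2 changes were 0.43 for AKR, -0.36 for ALDH, -0.45 for ADH and 0.02 for all genes. Of the 7 AKR genes that were higher, Akr1c6, Akr1c12, Akr1c14, Akr1c19 and Akr1c20 are neighbours in the chromosome 13 cluster. Akr1c13 of the same cluster did not differ (0.01, adjusted p 0.846), and Akr1e1, which lies just past the cluster, was the gene that was lower.
Akr7a5, which reduces toxic dialdehydes, had 562 CPM in polysomal against 223 CPM in total RNA (1.26, SE 0.09, adjusted p 6.10e-20), and 30 of 36 polysomal libraries exceeded the highest total RNA library. Akr1c6 had 1387 against 817 CPM (0.71, SE 0.08, adjusted p 4.22e-13). Akr1c14, Akr1c19, Akr1c12, Akr1c20 and Akr1d1 were higher by between 0.31 and 0.52. Of these calls, that of Akr1c14 was lost within replicates 4 to 6 (0.18, adjusted p 0.133), and those of Akr1c20 (adjusted p 0.0616) and Akr1d1 (0.107) within replicates 1 to 3. Akr1e1, a reductase of anhydrofructose, was the AKR gene that was lower, at 21.9 against 35.2 CPM (-0.74, SE 0.08, adjusted p 4.32e-13).
Among ALDH genes, Aldh1b1 had 19.99 against 71.97 CPM (-1.97, SE 0.20, adjusted p 1.49e-13). Aldh2 had 455 against 1345 CPM (-1.67, SE 0.12, adjusted p 4.91e-20), and 34 of 36 polysomal libraries lay below the lowest total RNA library. In replicates 1 to 3 alone Aldh2 changed by -1.26, in replicates 4 to 6 alone by -2.24. Aldh7a1 (-1.27, SE 0.08, adjusted p 4.69e-25) and Aldh8a1 (-0.91, SE 0.08, adjusted p 8.99e-17) were lower as well. Aldh6a1 (0.43, SE 0.10, adjusted p 0.00011) and Aldh4a1 (0.33, SE 0.07, adjusted p 4.47e-05), both enzymes of amino acid breakdown in mitochondria, were the 2 that were higher; Aldh4a1 did not pass within replicates 4 to 6 (0.05, adjusted p 0.575). Over all 36 libraries a series, 0 of 28 members were without overlap, beside 4.44% of all genes.
Aldh3a2 had a log2 change of 0.04 (SE 0.14, adjusted p 0.809) over all replicates. In replicates 1 to 3 it averaged 81.6 CPM ± 27.1 (SD, n = 18) in polysomal and 135.1 CPM ± 40.5 in total RNA (log2 change -0.75, adjusted p 2.76e-05). In replicates 4 to 6 it averaged 154 CPM ± 42.7 and 84.2 CPM ± 32.1 (0.72, adjusted p 4.36e-06), so that the 2 sets of replicate numbers went in opposite directions.
Adh4 was lower at 30.1 against 48.7 CPM (-0.80, SE 0.11, adjusted p 2.79e-09). Adh6-ps1 had a log2 change of -1.16 (SE 0.19, adjusted p 1.88e-07), with -0.33 (adjusted p 0.206) in replicates 1 to 3 alone and -1.91 in replicates 4 to 6 alone. Adh1 had 2782 CPM in polysomal RNA and did not pass (-0.09, SE 0.11). The ADH sum of polysomal replicate 1, the one with airway markers, was 5424 CPM ± 1846 (SD, n = 6) against 2584 CPM ± 653 (n = 30) in the others. Without that replicate Adh1 passed (-0.33, adjusted p 7.44e-05).

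Akr1c19 was rhythmic in all 3 wild-type series, and the only one of 29 members that was so in nuclear RNA, beside 5.99% of all 11172 genes. In nuclear RNA 3 members had an unadjusted p below 0.05 by edgeR, among them Akr1c14 (ratio 1.73, adjusted p 0.0899) and Akr1d1 (1.69, 0.105). At ZT6 nuclear RNA held 20.7, 46.8 and 71.0 CPM of Akr1c19, and at ZT14 59.0, 80.6 and 116 CPM (ratio 1.82, peak at ZT13.4, adjusted p 0.0206). In polysomal RNA 2 of 28 members were rhythmic (8 at an unadjusted p below 0.05), beside 7.9% of all 10691 genes. Akr1c19 had a ratio of 1.78 with its peak at ZT15.7 (adjusted p 0.00182), from 102 CPM in the median library at ZT6 to 184 CPM at ZT14. The nuclear call of Akr1c19 was lost within either set of replicates (adjusted p 0.112 and 0.449), and the polysomal one within replicates 1 to 3 (0.517). Adh4 had a ratio of 1.94 with its peak at ZT4.88 (adjusted p 0.0492), from 27.3, 37.5 and 57.1 CPM at ZT6 to 13.6, 17.4 and 29.7 CPM at ZT14. The polysomal call of Adh4 was lost within either set of replicates (adjusted p 0.32 and 0.131), with median-ratio size factors (adjusted p 0.055) and without the libraries with Xist (0.0544). A different rhythm between nuclear and total RNA was called by edgeR for 0 members (0 at an unadjusted p below 0.05; 0% of all genes). Between polysomal and total RNA it was called for 0 as well (1 at an unadjusted p below 0.05; 0% of all genes). Peak times of Akr1c19 in the 3 series can therefore not be ordered from these data.

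Transcripts can end at more than 1 polyadenylation site. The authors' filtered list held 69 sites in 28 of the 45 genes, of which 66 in 27 genes were used. Usage, a site's share of the counts at all sites of its gene, was tested in genes with at least 2 sites of 5% or more. Rhythmic usage in wild-type total RNA was called by edgeR for 0 of 25 member sites (0 at an unadjusted p below 0.05), beside 0.329% of all 12770 sites. In Bmal1-/- against wild type 8 of 26 member sites in 5 genes differed, beside 8.53% of all 13055 sites.
In Adh6-ps1 the most 5′ of 4 sites (chr3:138385835-138385979) took between 67.35% and 82.7% of counts in all 36 wild-type total RNA libraries. In Bmal1-/- total RNA the libraries fell into separate values: 19 held between 1.24% and 5.46%, 17 held between 50% and 100%, and 0 lay between. The shares of 50% and 100% rest on 6 and 2 counts of the gene. The strain, genotype and time labels do not separate the 19 libraries from the 17, and the mean over all 36 describes neither. The log2 change of its usage was -1.30 (SE 0.29, adjusted p 0.00122). The most 3′ site (chr3:138387618-138387686) took 17.6% ± 2.98 (SD, n = 36) in wild type, while Bmal1-/- libraries gave it 57.0% ± 32.1 (log2 change 1.69, SE 0.16, adjusted p 1.38e-12). In Bmal1-/- the share at the most 5′ site was as widely spread in replicates 1 to 3 (34.8% ± 32.9, n = 18) as in replicates 4 to 6 (31.9% ± 34.9, n = 18).
In Adh1 the site before the last (chr3:138289805-138289944) took 7.78% ± 2.45 of counts in wild type, while Bmal1-/- libraries gave it 15.6% ± 6.53 (log2 change 0.99, SE 0.15, adjusted p 3.02e-06). Its highest wild-type library was at 12.1% and its highest Bmal1-/- library at 28.0%, and the 2 ranges overlapped. The last site (chr3:138290532-138290705) carried most of the rest, 90.9% and 83.6% (log2 change -0.12, SE 0.02, adjusted p 6.76e-06). The wild-type library of ZT2, replicate 4, had 0.284% at the site before the last.
The other called sites were 2 of Aldh8a1 and 1 each of Akr1c20 and Aldh7a1, with log2 changes between -0.09 and 0.71. Without wild-type ZT2 replicate 4 the calls of the most 5′ Aldh8a1 site (adjusted p 0.0613) and of the Akr1c20 site (adjusted p 0.0601) were lost. The Aldh7a1 site did not pass within either set of replicates (adjusted p 0.103 and 0.442), and the last Aldh8a1 site (0.271) and the Akr1c20 site (0.0530) did not within replicates 4 to 6. The last Adh1 site did not within replicates 1 to 3 (adjusted p 0.051).

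**Figure D4:**
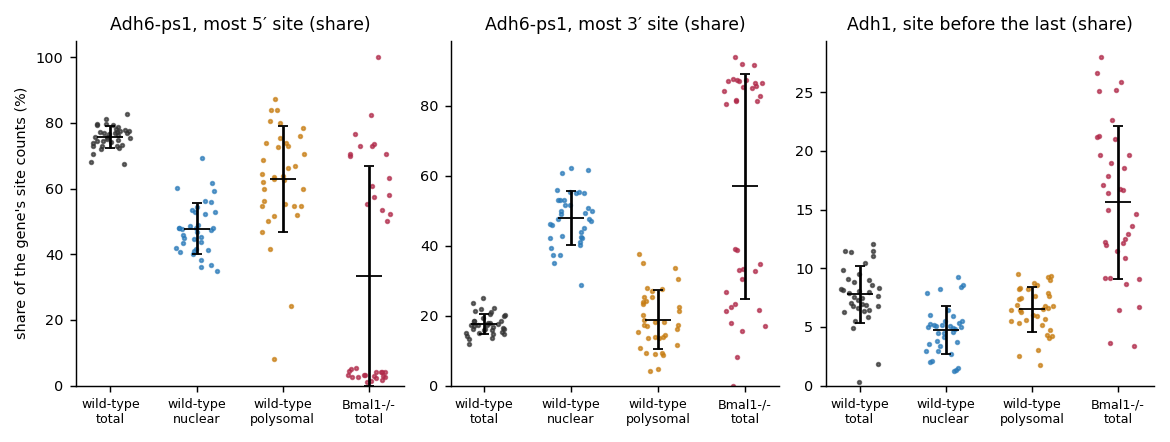
Share of a gene's site counts (y axis, percent) at 3 sites, by series. Points are libraries (36 per series), and bars give the mean and SD. At the most 5′ Adh6-ps1 site, 19 Bmal1-/- libraries lie at 5.46% or below and 17 at 50% or above.

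Nuclear RNA differed from total RNA at 25 of 28 member sites, beside 78.7% of all 11495 sites. In several genes an upstream site had a larger share in the nucleus. In Akr1d1 the site at chr6:37532519-37532601 took 49.4% ± 14.6 in nuclear and 15.2% ± 6.44 in total RNA (log2 change 1.68, SE 0.14, adjusted p 1.70e-17). In Aldh8a1 the site at chr10:21395884-21395997 took 41.7% ± 8.73 and 11.2% ± 3.71 (1.89, SE 0.11, adjusted p 3.68e-25). In Adh6-ps1 it was the most 3′ site that gained, at 47.9% ± 7.68 in nuclear RNA (1.45, SE 0.06, adjusted p 1.10e-32). The last site had the larger mean share in nuclear RNA in other genes too. Examples are Aldh7a1 (18.5% in nuclear against 7.13% in total RNA), Akr1c20 (28.3% against 13.1%) and Adh1 (94.3% against 90.9%). Polysomal RNA differed at 15 of 28 member sites, beside 70.6% of all 12195 sites. There Akr1d1 (12.8% at its upstream site) and Aldh8a1 (9.61%) did not pass. The Adh6-ps1 site at chr3:138386534-138386591 took 16.9% ± 11.2 in polysomal and 4.57% ± 1.21 in total RNA (1.82, SE 0.15, adjusted p 5.43e-17).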

How the data were processed

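Per the labels' protocols, libraries were made with a QuantSeq 3′ kit from liver total RNA, from nuclei purified through a sucrose cushion and from polysomes of a sucrose gradient. The submitters' processing notes name STAR 2.4.2a, HOMER, edgeR and the builds mm10 and GRCm38.p5. The authors deposited raw counts per gene and per polyadenylation site, 1 column per library (0 columns were left without a sample), and a filtered site list whose score column was not used in any test. The authors' normalized tables were not used here. Groups and replicate numbers came from the sample titles.

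Tests ran in R 4.3.3 with edgeR 4.0.16 (robust quasi-likelihood, TMM normalisation, Benjamini-Hochberg threshold 0.05 over all genes that averaged 10 counts or more), on 2 series at a time for levels and on each series for rhythm. DESeq2 1.42.0 was an alternative. Levels in CPM use raw totals, so that their ratio differs slightly from the fitted change. Site usage used the log of the gene total plus 0.5 as offset, in genes averaging 50 counts or more. Of 29199 sites in the filtered list 27353 were given to 1 gene through RefSeq GRCm38.p6, up to 1000 bases past its end (705 fell in more than 1 and were left out), and 25842 were kept, in genes whose sites summed to between 0.3 and 1.5 of the gene count. The strand of genes without one in RefSeq was inferred from their sites, which recovered 97.8% of known strands. Member genes past the threshold that averaged 50 counts or more get full statistics, others ranges. Of 360 pairs of libraries within groups none was a copy (chi-square per degree of freedom at least 4.03). The fits were tested on simulated data. The gene choice, the partner and marker lists and the named genes were set with earlier results of these data known.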

Additional observations from a re-analysis of the deposited data

Results flagged for a closer look

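In 78 time-point groups of 6 libraries whose values the report draws on, 3 held a library far from the other 5. Chance alone gives such a library in about 1 of 20 groups. The lowest Adh7 library of wild-type total RNA at ZT2 had 0.940 CPM against 2.38 to 3.16 CPM in the others. The highest Akr1c14 library of wild-type total RNA at ZT18 had 118.8 CPM against 64.7 to 78.3 CPM. The highest Aldh3a2 library of Bmal1-/- total RNA at ZT18 had 51.5 CPM against 20.7 to 32.1 CPM.

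For Akr1c19 (adjusted p 0.0187) and Adh1 (adjusted p 0.0298) the daily rhythm in Bmal1-/- was not that of wild type by edgeR's interaction test.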

How the results depend on the processing

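Counts of members past the threshold moved by over 1.5 times under these alternatives. The 14 level calls for Bmal1-/- became 9 with all 4 series in 1 fit. The 6 rhythm calls in wild-type total RNA became 3 within replicates 1 to 3, 0 within replicates 4 to 6, 2 with all 4 series in 1 fit and 3 with time point as a factor. The 1 call in nuclear RNA became 3 without the count filter, 2 with the replicate block, 0 within either set of replicates and 2 with all series in 1 fit. The 2 calls in polysomal RNA became 1 with median-ratio size factors, 5 without the filter, 7 with the replicate block, 0 and 1 within the 2 sets, 5 with all series in 1 fit and 1 with time point as a factor. The 2 different rhythms in Bmal1-/- became 0 within either set and 1 with all series in 1 fit. The 25 nuclear site calls became 15 with a minimum of 200 counts, where fewer genes were tested. The cause of the other changes was not tested. Among values past the threshold in all libraries or within the set, these signs turned within 1 set of replicates: in replicates 1 to 3 for polysomal RNA, Aldh16a1 (0.0070), Aldh1l1 (0.0055) and Aldh3a2 (-0.75), and for nuclear usage an Aldh16a1 site (0.0595); in replicates 4 to 6 for Bmal1-/-, Aldh1a7 (0.32) and Aldh5a1 (0.0320). For single genes or sites, 1142 values under the alternatives were compared with the main fit. They cover rhythms and site usage called in the main fit, and levels called in any fit. Rhythm or site calls gained only under an alternative are not among them. Of the 1142 values, 1041 stayed on their side of the threshold, and those past it kept their direction. Some values that did not pass turned sign, such as Adh6-ps1 in Bmal1-/- (0.48 within replicates 1 to 3).

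Same-numbered nuclear and total libraries deviated together in 34 of 36 pairs (mean correlation 0.349). Of the total libraries, 29 of 36 correlated best with the nuclear library of their own number. Polysomal ones did not deviate together (-0.133), and Bmal1-/- ones did in 18 of 36. With these mixed values the numbers were not taken as pairs in the main fits, which leaves the nuclear link unused. A fit that paired nuclear and total libraries by number and hour called 10147 of 11864 genes for level, beside 9940 in the main fit. The replicate block is given here alone. Beside the counts above, the block added the level call of Adh6-ps1 in Bmal1-/- (-0.80, adjusted p 0.0213), a rhythm call in wild-type total RNA (7), 4 Bmal1-/- site calls (12) and a nuclear one (26). Genes averaging under 10 counts were not tested.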
